A study of Sus scrofa with 11 samples.

Results

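Heat shock proteins and their co-chaperones were followed in the ischemic left ventricle of pigs on 2 diets, with and without an injection of extracellular vesicles (EV), membrane particles that cells release. The members were all probe sets whose single gene symbol began with HSPA, HSPB, HSPD, HSPE, HSPH, HSP90, DNAJ or CCT followed by a digit, or was CRYAB or CALR. The rule gave 66 genes on 68 probe sets, out of 12218 genes with 1 symbol and 27558 probe sets in all. By textbook location 42 genes were cytosolic or nuclear, 8 mitochondrial and 11 of the endoplasmic reticulum (ER), and 5 lay elsewhere. By class, 36 carried a J domain, 7 were small heat shock proteins and 5 were subunits of the cytosolic chaperonin TRiC. HSPA8 and CCT6A had 2 probe sets each, and a gene's value comes from the one with the highest mean signal. HSP90AA1, HSP90B1, HSPA1A, HSPB7, DNAJA3, CCT5 and CCT8 were not analysed here.

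Chaperones bind unfolded protein and release it in cycles driven by ATP. J domain proteins bring clients to HSP70 and start its cycle, nucleotide exchange factors of the HSP110 family end it, and chaperonins enclose a client in a chamber. Small heat shock proteins hold unfolding proteins without ATP and are abundant in heart muscle, where several of them bind sarcomere and intermediate filament proteins. The mitochondrial matrix and the ER each hold an HSP70 of their own, HSPA9 and HSPA5, with J proteins of their own.

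The animals were male Yorkshire pigs. Their diet over 12 weeks was either normal (ND) or high in fat (HFD), and every pig, in all 4 groups, had an ameroid constrictor, a ring that slowly closes the vessel, on the left circumflex coronary artery. The groups ND and HFD had vehicle injected into the ischemic heart muscle, and the groups ND+EV and HFD+EV had EV injected there. Tissue was taken 5 weeks after the injection. The labels do not state which cells the EV came from, and vehicle-injected hearts without a constrictor were not analysed here. There were 3 arrays of ND, 3 of ND+EV, 2 of HFD and 3 of HFD+EV. The titles call them biological replicates, no label ties an array to a named animal, and the p-values measure only the spread between these samples. Values are the deposited log2 signal, so a difference of 1 is a fold of 2, and they do not compare one gene's amount with another's.

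Cardiomyocyte markers were measured for 8 of 10 genes listed, from a mean signal of 6.26 for PLN to 13.0 for MYL2, a myosin light chain of the ventricle. ND replicates 1 and 3 stood apart, with a mean correlation to the other arrays of 0.946 and 0.952 against 0.965 to 0.972 for the other 9 arrays. Their log2 signal also had the smallest spread over probe sets (SD 1.45 and 1.47), and the HFD arrays were among those with the largest (1.59 and 1.62). Over the 5244 probe sets with a mean signal of 6 or more, the median difference between HFD and ND was 0.28, against -0.08 over the dimmer ones and -0.02 over all 20668 probe sets tested. After quantile or cyclic loess normalization the median of the bright probe sets was 0.04 or 0.02. Every difference of a bright probe set between HFD and ND below is therefore to be read beside 0.28, also where 0.28 is not repeated. In this bulk tissue, fewer cells of a type and less RNA per cell cannot be told apart.

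On average, chaperones of all 3 compartments read highest in HFD and lowest in ND, and the ER lectin CALR passed the test between those diets. With limma and Benjamini-Hochberg adjustment over all 20668 probe sets, 1 of the 66 member probe sets tested passed an adjusted p of 0.05 in HFD against ND, where the share over all probe sets was 0.735%. The count was 12 without ND replicate 2, where 1353 of all probe sets passed, and 9 without HFD+EV replicate 1, where 721 did. Without any other single array of ND, ND+EV or HFD+EV the count was 0, and at most 14 of all probe sets passed. At an unadjusted p of 0.05, 25 members were higher in HFD and 3 lower, against 13.6% and 10.4% of all probe sets, so 42.4% of members lay under that p against 24.0% of all probe sets. HFD held the highest group mean for 37 of 66 genes (56.1%), against 30.1% of all probe sets tested and 49.6% of those with a mean signal of 6 or more. ND held the lowest mean for 33 genes (50.0%), against 29.8% and 52.2%.

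The share of members was highest among those with bright probe sets. All 27 member probe sets with a mean signal of 6 or more were higher in HFD than in ND, against 72.7% of all probe sets at that signal. The median of these members was 0.67 against 0.28, and 18 of them (66.7%) had an unadjusted p under 0.05 against 38.0%. The 39 dimmer members had a median of 0.06 against -0.08 over all dimmer probe sets tested, and 10 of them were under that p, against 19.3%. The division at 6 was chosen after the values were seen. Under quantile normalization 23 of the 27 bright members were higher in HFD, with a median of 0.44 against 0.04 over all bright probe sets, and under cyclic loess 23, with a median of 0.38 against 0.02. With ND replicates 1 and 3 left out, 24 were higher, with a median of 0.49 against 0.15, and 16.7% of members had an unadjusted p under 0.05 against 12% of all probe sets.

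No member passed in the other comparisons. In HFD+EV against ND+EV 0 of 66 passed and 5 had an unadjusted p under 0.05 in limma, where the shares over all probe sets were 0.0% and 7.36%. In ND+EV against ND 0 passed and 2 were under that p (all probe sets 0.0% and 8.51%). HFD+EV against HFD gave counts of 0 and 4 (all probe sets 0.0% and 5.54%), and for the difference of the EV effects between the diets 0 and 7 (0.0% and 8.42%). The F test for any difference among the 4 groups called 0 members, with 19 (28.8%) under an unadjusted p of 0.05 against 17.0% of all probe sets, and 0.0% of all probe sets called. The shares of members under that p were 7.58%, 3.03%, 6.06% and 10.6% in the order given. They moved with single arrays: in HFD+EV against ND+EV, 13 members (19.7%, all probe sets 10.4%) were under that p without HFD+EV replicate 1, and 21 (31.8%, all probe sets 16.7%) with array weights. Leaving out each array in turn gave from 2 to 13 members in that comparison and from 1 to 9 in ND+EV against ND, where the 9 (13.6%, all probe sets 13.3%) came without ND replicate 2. The counts ran from 1, without HFD+EV replicate 1, to 8, without HFD+EV replicate 3 (12.1%, all probe sets 6.26%), in HFD+EV against HFD. For the difference of the EV effects they ran from 3, without ND replicate 1 or HFD replicate 2, to 12, without HFD+EV replicate 3 (18.2%, all probe sets 8.82%).

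**Figure D1:**
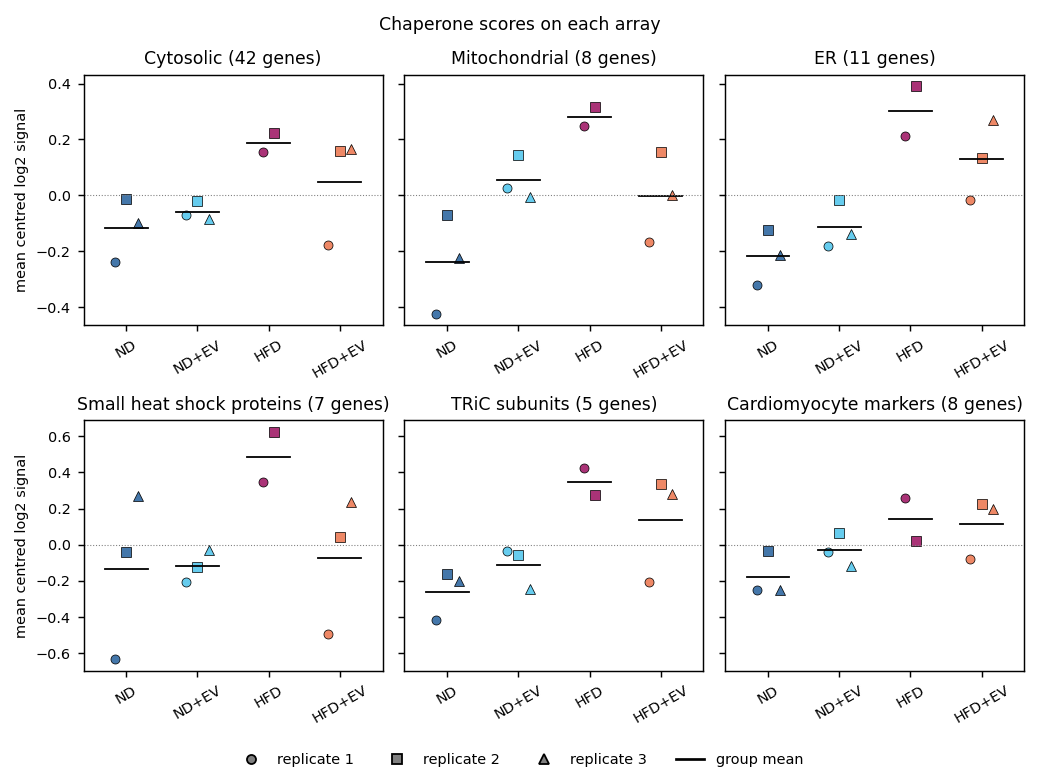
Mean centred log2 signal of cytosolic, mitochondrial, ER, small heat shock protein, TRiC and cardiomyocyte marker genes on each of the 11 arrays, by group, where each gene was first centred on its mean over the 11 arrays. Symbols mark the replicate number and black lines the group means. Both HFD arrays lie above all 3 ND arrays in every panel, and HFD+EV replicate 1 lies lowest of its group in every panel.

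**Figure D2:**
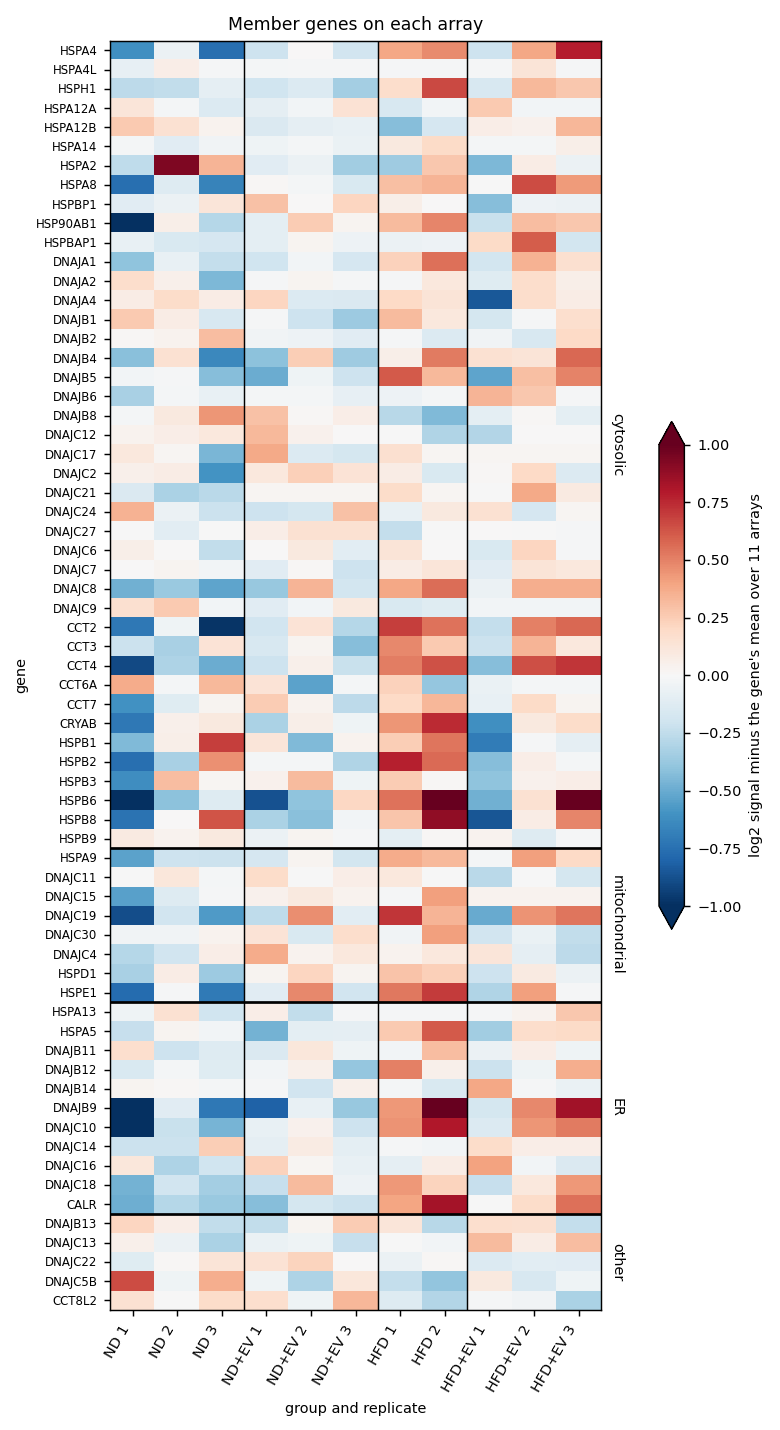
Log2 signal of each of the 66 genes on the 11 arrays, minus the gene's mean over the arrays, by compartment, in blue below and red above that mean, with the colour bar ending at -1 and 1. The columns of HFD hold most of the red and those of ND most of the blue, while HFD+EV replicates 2 and 3 are red for many genes and HFD+EV replicate 1 is not.

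The ER members were led by CALR, DNAJB9 and DNAJC10. CALR, calreticulin, binds newly made glycoproteins and stores calcium. It read 8.12, 8.33 and 8.24 on the ND arrays, 8.18, 8.43 and 8.39 on ND+EV, 9.01 and 9.44 on HFD, and 8.61, 8.79 and 9.16 on HFD+EV. Every array of a high fat group, with or without EV, lay above every array of a normal diet group. The HFD mean of 9.22 ± 0.31 (SD, n = 2) was 0.99 ± 0.19 (SE) above the ND mean of 8.23 ± 0.10 (SD, n = 3), a fold of 1.99, and CALR rose with an adjusted p of 0.0474 in limma. Between the EV-injected groups it was 0.52 ± 0.17 higher in HFD+EV (unadjusted p = 0.0108, adjusted p = 0.596) and did not pass.

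The call for CALR lay close to the threshold. Over 20 alternatives its adjusted p ran from 0.0228 to 0.314 and was under 0.05 in 4 of them. It stayed under the threshold without ND replicate 2 (0.0286) or HFD+EV replicate 1 (0.0321) and was lost without each of the other 9 arrays, from 0.0600 without HFD+EV replicate 3 to 0.265 without HFD replicate 2. The difference itself was 0.66 after quantile normalization (adjusted p = 0.0924), 0.57 after cyclic loess (0.107) and 0.90 without ND replicates 1 and 3 (0.314).

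DNAJB9, a J protein of the ER lumen that works with HSPA5, gave the highest difference of the compartment. Its log2 signal was 5.26, 6.22 and 5.63 on the ND arrays, 5.53, 6.26 and 5.96 on ND+EV, 6.78 and 7.93 on HFD, and 6.17, 6.82 and 7.18 on HFD+EV. Both HFD arrays lay above all ND arrays, but they differed from each other by more than HFD replicate 1 differed from ND replicate 2. HFD was 1.65 ± 0.40 above ND (adjusted p = 0.0679). HFD+EV was 0.81 above ND+EV, with an unadjusted p of 0.0478, and neither difference passed.

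DNAJC10, an ER J protein that reduces disulfide bonds, read 5.06, 5.98 and 5.74 on ND, 6.13, 6.25 and 6.0 on ND+EV, 6.66 and 7.0 on HFD, and 6.07, 6.65 and 6.73 on HFD+EV. All ND arrays were below all other arrays. The difference of HFD from ND was 1.24 ± 0.27 (adjusted p = 0.0600). That of ND+EV from ND was 0.53 ± 0.24 (unadjusted p = 0.0527, adjusted p = 0.590), and the difference of the EV effects was -0.88 ± 0.37 (0.0352, 0.578).

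HSPA5, or BiP, the HSP70 of the ER and the sensor partner of the unfolded protein response, stood at 6.18, 6.44 and 6.38 on ND, 5.94, 6.31 and 6.32 on ND+EV, 6.67 and 7.03 on HFD, and 6.06, 6.59 and 6.60 on HFD+EV. Only HFD lay apart, and HFD+EV overlapped both ND groups. HFD was 0.51 ± 0.20 above ND (adjusted p = 0.160), and HFD+EV was -0.43 ± 0.20 from HFD (unadjusted p = 0.0562, adjusted p = 0.902). DNAJB11, another HSPA5 partner, read 6.52, 6.15 and 6.23 on ND, 6.21, 6.47 and 6.31 on ND+EV, 6.33 and 6.66 on HFD, and 6.30, 6.43 and 6.31 on HFD+EV. Its groups overlapped throughout, with HFD 0.20 above ND (adjusted p = 0.461).

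Of the 11 ER genes, 10 were higher in HFD than in ND, with a median of 0.37, and all 11 were higher in HFD+EV than in ND+EV, with a median of 0.16. Over all probe sets tested 47.5% and 48.79% were higher in these comparisons, and over those with a mean signal of 6 or more 72.73% and 63.25%. The exception among the ER genes between HFD and ND was DNAJB14, a J protein of the ER membrane, at -0.09. Besides the genes above, DNAJC18 was 0.66 higher in HFD (unadjusted p = 0.0100) and DNAJB12 0.37 (0.0966), while HSPA13, DNAJC14 and DNAJC16 lay between 0.02 and 0.12. Under quantile normalization and under cyclic loess 10 of 11 were higher in both diet comparisons. Without ND replicates 1 and 3, 9 of 11 were higher in HFD than in ND.

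Mitochondrial members read higher in HFD than in ND on average in vehicle-injected hearts, and had a median of -0.09 between the diets after EV. All 8 genes were higher in HFD than in ND, from 0.02 for DNAJC11 to 1.11 for HSPE1, with a median of 0.45, and 5 had an unadjusted p under 0.05. Of all probe sets tested 47.5% were higher and 24.0% lay under that p, and of those with a mean signal of 6 or more 72.7% and 38.0%. In HFD+EV against ND+EV 2 of the 8 genes were higher and the median of the 8 was -0.09. The 3 genes with a mean signal of 6 or more had a median of 0.13 there, with 2 higher. The 5 dimmer ones had a median of -0.22, with 0 higher. Under quantile normalization and cyclic loess the median of the 8 was -0.17 and -0.16, with 3 higher under either. The count in HFD against ND was 7 of 8 under quantile normalization, under cyclic loess and with ND replicates 1 and 3 left out, where the medians were 0.39, 0.39 and 0.29. The ER median was 0.35 with those ND arrays left out. Without ND replicate 1 alone the medians were 0.34 for mitochondria and 0.35 for the ER.

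HSPD1 (HSP60) and HSPE1 (HSP10) form the chamber and the lid of the matrix chaperonin. HSPD1 read 5.28, 5.68 and 5.24 on ND, 5.64, 5.83 and 5.64 on ND+EV, 5.89 and 5.85 on HFD, and 5.40, 5.70 and 5.55 on HFD+EV. HSPE1 was at 6.53, 7.29 and 6.59 on ND, 7.18, 7.78 and 7.11 on ND+EV, 7.82 and 8.0 on HFD, and 7.0, 7.71 and 7.29 on HFD+EV. For both genes the HFD arrays were the highest of all 11, ND replicates 1 and 3 were the lowest, and ND replicate 2 lay among the EV-injected arrays.

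The difference between HFD and ND was 0.47 ± 0.16 for HSPD1 (adjusted p = 0.119) and 1.11 ± 0.28 for HSPE1 (adjusted p = 0.0739). Under the normal diet, EV-injected hearts were 0.30 and 0.56 above vehicle, with unadjusted p of 0.0636 and 0.0522. Under the high fat diet they were at -0.32 ± 0.16 and -0.58 ± 0.28 from vehicle, with unadjusted p of 0.0728 and 0.0668. The difference of these EV effects was -0.62 ± 0.21 for HSPD1 (unadjusted p = 0.0159) and -1.14 ± 0.38 for HSPE1 (0.0130), and neither passed after adjustment (both adjusted p = 0.572).

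HSPA9, or mortalin, pulls proteins through the inner membrane and folds them in the matrix. It was at 6.57, 6.90 and 6.89 on ND, 6.94, 7.13 and 6.92 on ND+EV, 7.48 and 7.43 on HFD, and 7.08, 7.51 and 7.31 on HFD+EV. The ND arrays lay below all others, and HFD was 0.67 ± 0.16 above ND (adjusted p = 0.0656). DNAJC19, a J protein of the import motor, read 5.82, 6.51 and 6.13 on ND, 6.45, 7.17 and 6.60 on ND+EV, 7.41 and 7.04 on HFD, and 6.20, 7.15 and 7.24 on HFD+EV. It was 1.07 ± 0.33 higher in HFD than in ND (adjusted p = 0.0963), and its HFD+EV arrays spanned the range from ND to HFD.

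Among the other mitochondrial J proteins, DNAJC15, also of the import motor, was 0.43 higher in HFD than in ND (unadjusted p = 0.0314), and DNAJC4, DNAJC30 and DNAJC11 were 0.21, 0.20 and 0.02 higher, none under that p. DNAJC30, of the inner membrane, read 4.91 and 5.36 on HFD and 4.76, 4.88 and 4.70 on HFD+EV, so that the groups did not overlap. Its difference in HFD+EV against HFD was -0.35 ± 0.16 (unadjusted p = 0.0476, adjusted p = 0.896). DNAJC11, a protein of the cristae, was 0.23 ± 0.11 lower in HFD+EV than in ND+EV (unadjusted p = 0.0663, adjusted p = 0.697).

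In ND+EV all 8 mitochondrial genes were above ND, with a median of 0.29, and all 8 were lower in HFD+EV than in HFD, with a median of -0.26. The difference of the EV effects was below 0 for all 8, from -0.25 for DNAJC11 to -1.14 for HSPE1, with a median of -0.45. All probe sets with a mean signal of 6 or more had a median of -0.17, and those under 6 of 0.04. In these 3 comparisons, in that order, 49.15%, 49.55% and 50.18% of all probe sets tested were above 0. At a mean signal of 6 or more the shares were 61.31%, 36.78% and 33.91%. These comparisons share arrays: HFD and ND enter both the diet comparison and the EV comparisons, so a high HFD group moves both. With ND replicates 1 and 3 left out, 7 of 8 were above ND in ND+EV, with a median of 0.09, and the difference of the EV effects was still below 0 for all 8, with a median of -0.40.

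**Figure D3:**
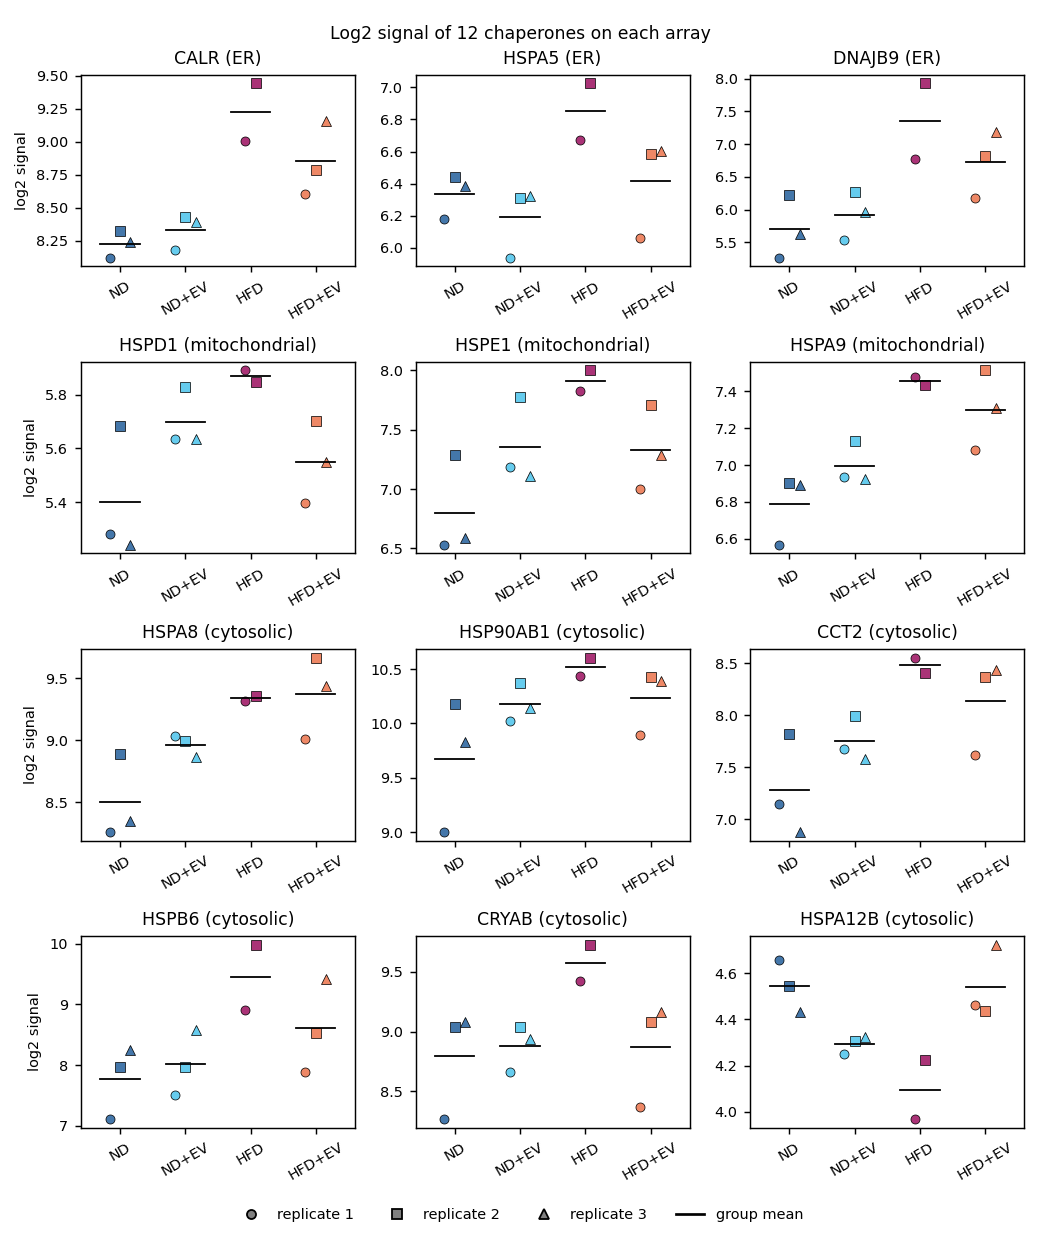
Log2 signal of 12 chaperones on each array, by group, with symbols for the replicate number and black lines for group means. For CALR both high fat groups lie above both normal diet groups, for HSPD1 and HSPE1 the HFD arrays are the highest of all, and HSPA12B runs the other way, with the HFD arrays lowest.

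The cytosolic members were split. Of 42 genes, 30 were higher in HFD than in ND, against 47.5% of all probe sets tested, and the median was 0.18. At an unadjusted p of 0.05, 15 were higher and 2 lower, against 13.6% and 10.4% of all probe sets, and none passed after adjustment. The 17 genes with a mean signal of 6 or more were all higher, against 72.7% of all probe sets at that signal, with a median of 0.63 beside 0.28. The other 25 had a median of 0.05, with 13 higher, beside -0.08 for all probe sets under 6. Bright genes were 3 of 8 in mitochondria (median 1.07) and 6 of 11 in the ER (0.75), and the dimmer ones there had medians of 0.21 and 0.12.

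HSPA8, the constitutive HSP70 also called HSC70, read 8.26, 8.89 and 8.35 on ND, 9.03, 9.0 and 8.87 on ND+EV, 9.32 and 9.36 on HFD, and 9.01, 9.67 and 9.44 on HFD+EV. ND was low and the other groups overlapped only in part. It was 0.84 ± 0.22 higher in HFD than in ND (adjusted p = 0.0760) and 0.47 ± 0.20 higher in ND+EV than in ND (unadjusted p = 0.0372, adjusted p = 0.574). After quantile normalization and cyclic loess these differences were 0.50 and 0.40 for HFD against ND, and 0.26 and 0.22 for ND+EV against ND. The dimmer probe set of HSPA8 gave 0.17 for HFD against ND and 0.03 for ND+EV against ND. After quantile normalization and cyclic loess it gave 0.011 and 0.007 for HFD against ND, and 0.002 and -0.003 for ND+EV against ND.

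HSP90AB1, the constitutive HSP90, was at 9.0, 10.18 and 9.83 on ND, 10.02, 10.38 and 10.15 on ND+EV, 10.44 and 10.61 on HFD, and 9.90, 10.43 and 10.39 on HFD+EV. ND replicate 1 lay far below the rest. HFD was 0.85 ± 0.30 above ND (adjusted p = 0.122), 0.63 after quantile normalization and 0.38 after cyclic loess. The difference was 0.52 without ND replicate 1 and 0.34 without ND replicates 1 and 3. Its adjusted p without ND replicate 2 was 0.0462. HFD+EV was 0.06 above ND+EV.

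The HSP110 exchange factors followed. HSPA4 read 6.71, 7.27 and 6.58 on ND, 7.12, 7.33 and 7.13 on ND+EV, 7.72 and 7.80 on HFD, and 7.12, 7.71 and 8.12 on HFD+EV, with HFD 0.90 ± 0.27 above ND (adjusted p = 0.0911). HSPH1 was at 4.28, 4.29 and 4.45 on ND, 4.33, 4.40 and 4.20 on ND+EV, 4.71 and 5.20 on HFD, and 4.38, 4.86 and 4.81 on HFD+EV. HSPH1 was 0.61 ± 0.18 higher in HFD than in ND (adjusted p = 0.0918) and 0.37 ± 0.17 higher in HFD+EV than in ND+EV (unadjusted p = 0.0476, adjusted p = 0.673). HSPA4L, of the same family, and HSPBAP1, a partner of small heat shock proteins, had a mean signal in the lowest 25% and were not tested. HSPBP1, another exchange factor of HSP70, was 0.35 ± 0.14 lower in HFD+EV than in ND+EV (unadjusted p = 0.0299, adjusted p = 0.642).

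HSPA12B, a distant relative of HSP70 known from endothelium, ran the other way. It was at 4.66, 4.54 and 4.43 on ND, 4.25, 4.30 and 4.32 on ND+EV, 3.97 and 4.22 on HFD, and 4.46, 4.44 and 4.72 on HFD+EV. ND and HFD+EV were high and did not overlap with ND+EV and HFD. The difference was -0.45 ± 0.14 for HFD against ND (adjusted p = 0.0980), -0.25 ± 0.12 for ND+EV against ND (adjusted p = 0.619) and 0.45 ± 0.14 for HFD+EV against HFD (unadjusted p = 0.00903, adjusted p = 0.746).

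The difference of the EV effects on HSPA12B, 0.70 ± 0.19, had the smallest p of any member in that comparison (unadjusted p = 0.00357, adjusted p = 0.572). It was 0.63 after quantile normalization, 0.64 after cyclic loess and 0.70 without ND replicates 1 and 3. Of the endothelial markers, 5 of 8 were measured, from 3.82 for CLDN5 to 7.93 for PECAM1. In HFD against ND all 5 were higher, with a median of 0.24, beside 0.28 over all probe sets with a mean signal of 6 or more. In HFD+EV against HFD 1 of 5 was higher, with a median of -0.06, beside -0.08. The log2 of their summed signal ran from 9.04 to 9.43 on ND, 9.07 to 9.21 on ND+EV, 9.31 to 9.57 on HFD and 9.24 to 9.54 on HFD+EV, and their part in the values of HSPA12B was not tested.

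The remaining cytosolic HSP70 relatives differed little. HSPA14, which sits at the ribosome, was 0.20 higher in HFD than in ND (unadjusted p = 0.0987), HSPA12A was at -0.08, and HSPA2 was at -0.38 with arrays of ND as far apart as 4.15 and 5.34. In ND+EV against ND HSPA2 was at -0.51 ± 0.28 (unadjusted p = 0.0925, adjusted p = 0.628). In HFD+EV against ND+EV all 9 cytosolic HSP70, HSP90 and HSP110 genes were higher, from 0.03 for HSPA2 to 0.46 for HSPA4, with a median of 0.06. Of all probe sets tested 48.79% were higher there.

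TRiC, the chaperonin that folds actin and tubulin, had 5 subunits among the members. Of these, 4 were higher in HFD than in ND with an unadjusted p under 0.05, against 13.6% of all probe sets. A further subunit, TCP1, whose symbol lies outside the rule, was at 0.28 ± 0.17 (unadjusted p = 0.137). CCT2 read 7.14, 7.82 and 6.88 on ND, 7.67, 7.99 and 7.58 on ND+EV, 8.55 and 8.40 on HFD, and 7.62, 8.37 and 8.43 on HFD+EV. CCT4 was at 4.76, 5.35 and 5.16 on ND, 5.45, 5.71 and 5.43 on ND+EV, 6.17 and 6.30 on HFD, and 5.23, 6.30 and 6.38 on HFD+EV. In both, HFD+EV replicate 1 lay among the normal diet arrays, while the other HFD+EV arrays lay at the level of HFD.

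HFD was above ND by 1.20 ± 0.30 for CCT2 (adjusted p = 0.0696), 1.14 ± 0.31 for CCT4 (0.0775), 0.50 ± 0.21 for CCT3 (0.172) and 0.50 ± 0.21 for CCT7 (0.176). CCT6A was at -0.30 ± 0.23 (0.438), and its other, dimmer probe set gave 0.13, so the pair pointed in opposite directions. All 5 subunits were higher in HFD+EV than in ND+EV, against 48.79% of all probe sets tested, with a median of 0.26, and none had an unadjusted p under 0.05. This count was 4 of 5 under quantile normalization and under cyclic loess.

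HSPB6 and HSPB8 had the largest pooled SD within groups of all members, 0.66 and 0.55, followed by the 0.53 of DNAJB9. The other small heat shock proteins lay between 0.06 (HSPB9) and 0.41 (HSPB1). HSPB6, a small heat shock protein of muscle, read 7.11, 7.96 and 8.25 on ND, 7.50, 7.97 and 8.58 on ND+EV, 8.91 and 9.99 on HFD, and 7.89, 8.52 and 9.42 on HFD+EV. HFD was 1.68 ± 0.50 above ND (adjusted p = 0.0899), 1.36 after quantile normalization and 1.27 after cyclic loess, and HFD+EV was -0.84 ± 0.50 from HFD (unadjusted p = 0.122, adjusted p = 0.915).

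CRYAB, alpha B-crystallin, which binds desmin and titin, was at 8.27, 9.03 and 9.08 on ND, 8.66, 9.04 and 8.94 on ND+EV, 9.42 and 9.73 on HFD, and 8.37, 9.08 and 9.16 on HFD+EV. HSPB2, whose gene neighbours that of CRYAB, read 5.26, 5.69 and 6.48 on ND, 6.0, 6.0 and 5.72 on ND+EV, 6.79 and 6.59 on HFD, and 5.60, 6.08 and 6.0 on HFD+EV. For both, the HFD arrays were the highest of all and HFD+EV overlapped both normal diet groups.

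CRYAB was 0.78 ± 0.29 higher in HFD than in ND (adjusted p = 0.139) and -0.71 ± 0.29 from HFD in HFD+EV (unadjusted p = 0.0329, adjusted p = 0.895). These differences of CRYAB were 0.47 and -0.61 after quantile normalization, and 0.34 and -0.59 after cyclic loess. HSPB2 was 0.88 ± 0.29 higher in HFD than in ND (adjusted p = 0.113) and -0.80 ± 0.29 from HFD in HFD+EV (unadjusted p = 0.0207, adjusted p = 0.851). Both stood at -0.01 in HFD+EV against ND+EV.

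HSPB1, the widely expressed HSP27, read 8.82, 9.32 and 9.96 on ND, 9.38, 8.82 and 9.30 on ND+EV, 9.51 and 9.80 on HFD, and 8.56, 9.25 and 9.17 on HFD+EV. HSPB8, which works with BAG3 in clearing damaged muscle proteins, was at 7.48, 8.22 and 8.85 on ND, 7.90, 7.80 and 8.19 on ND+EV, 8.49 and 9.10 on HFD, and 7.37, 8.30 and 8.70 on HFD+EV. The ND arrays of both were spread widely and overlapped with HFD. HFD was 0.61 ± 0.42 above ND for HSPB8 (adjusted p = 0.396) and 0.29 ± 0.32 for HSPB1 (0.607). Under quantile normalization and cyclic loess the difference was 0.28 and 0.22 for HSPB8, and that of HSPB1 turned to -0.02 and -0.16.

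HSPB3, a muscle protein, was 0.23 ± 0.25 higher in HFD than in ND (adjusted p = 0.600), a difference of -0.03 without ND replicate 1, and HSPB9, known from testis, was at -0.12. Over all 7 small heat shock proteins the median was 0.61 in HFD against ND and -0.68 in HFD+EV against HFD, with 6 of 7 higher and 6 of 7 lower. Of the 7, 6 had a mean signal of 6 or more. At that signal 72.73% of all probe sets were higher in HFD than in ND, and 36.78% were higher in HFD+EV than in HFD. Under quantile normalization the medians of the 7 genes were 0.28 and -0.58, and under cyclic loess 0.22 and -0.57, with 5 of 7 higher in HFD than in ND under either. Without ND replicate 1 the median in HFD against ND was 0.26, and without HFD+EV replicate 1 that in HFD+EV against HFD was -0.44. Without HFD replicate 2 these medians were 0.35 and -0.37.

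Among cytosolic J proteins, 13 of 19 were higher in HFD than in ND, with a median of 0.12. At an unadjusted p of 0.05, 4 were higher and 1 lower, against 13.6% and 10.4% of all probe sets. DNAJC8, a nuclear J protein of the spliceosome, read 6.59, 6.70 and 6.54 on ND, 6.69, 7.41 and 6.88 on ND+EV, 7.46 and 7.63 on HFD, and 7.01, 7.43 and 7.43 on HFD+EV. HFD was the highest group and did not overlap with any other, 0.93 ± 0.21 above ND (adjusted p = 0.0612). DNAJA1, a main partner of HSPA8, was at 5.85, 6.18 and 6.02 on ND, 6.06, 6.23 and 6.09 on ND+EV, 6.49 and 6.80 on HFD, and 6.08, 6.60 and 6.42 on HFD+EV, with HFD 0.63 ± 0.18 above ND (adjusted p = 0.0822).

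DNAJB1, a J protein induced by stress, read 5.90, 5.72 and 5.48 on ND, 5.63, 5.43 and 5.28 on ND+EV, 5.96 and 5.74 on HFD, and 5.46, 5.63 and 5.81 on HFD+EV. Its groups overlapped, and HFD was 0.15 ± 0.17 above ND (adjusted p = 0.609). DNAJB5 was 0.62 higher in HFD than in ND (unadjusted p = 0.0472), DNAJC21, which acts in ribosome assembly, 0.34 (0.0323), and DNAJB4 0.59 (0.0549).

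DNAJB8 was the J protein of the cytosol that was lower in HFD than in ND at that p. It was at 4.74, 4.86 and 5.21 on ND, 5.05, 4.77 and 4.83 on ND+EV, 4.49 and 4.32 on HFD, and 4.67, 4.78 and 4.66 on HFD+EV. Both HFD arrays lay below all others, with a difference from ND of -0.53 ± 0.16 (adjusted p = 0.0911) and 0.30 ± 0.16 for HFD+EV against HFD (unadjusted p = 0.0892, adjusted p = 0.905). Its EV effects differed by 0.35 ± 0.21 (unadjusted p = 0.130, adjusted p = 0.653). The 12 further J proteins of the cytosol and nucleus lay between -0.27 (DNAJC9) and 0.20 (DNAJC17) in HFD against ND, none of them under an unadjusted p of 0.05. The probe set annotated as DNAJB7, whose gene is now named DNAJB6, was among them at 0.10.

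Outside the 3 compartments, 4 of 5 genes were lower in HFD than in ND. DNAJC5B, a cysteine string protein of vesicle membranes, read 5.24, 4.54 and 4.95 on ND, 4.54, 4.28 and 4.70 on ND+EV, 4.35 and 4.20 on HFD, and 4.69, 4.43 and 4.54 on HFD+EV. Its difference was -0.64 ± 0.20 in HFD against ND (adjusted p = 0.101), -0.41 ± 0.18 in ND+EV against ND (unadjusted p = 0.0466, adjusted p = 0.582) and 0.69 ± 0.27 between the EV effects (unadjusted p = 0.0285, adjusted p = 0.572). DNAJC13, an endosomal J protein, was 0.34 ± 0.13 higher in HFD+EV than in ND+EV (unadjusted p = 0.0238, adjusted p = 0.622), and 0.24 ± 0.15 higher in HFD+EV than in HFD (0.122, 0.915). DNAJC22, a membrane J protein, was 0.24 lower in HFD+EV than in ND+EV (0.0535, 0.686). CCT8L2 and DNAJB13, the latter of the axoneme, were at -0.32 and -0.09 in HFD against ND.

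**Figure D4:**
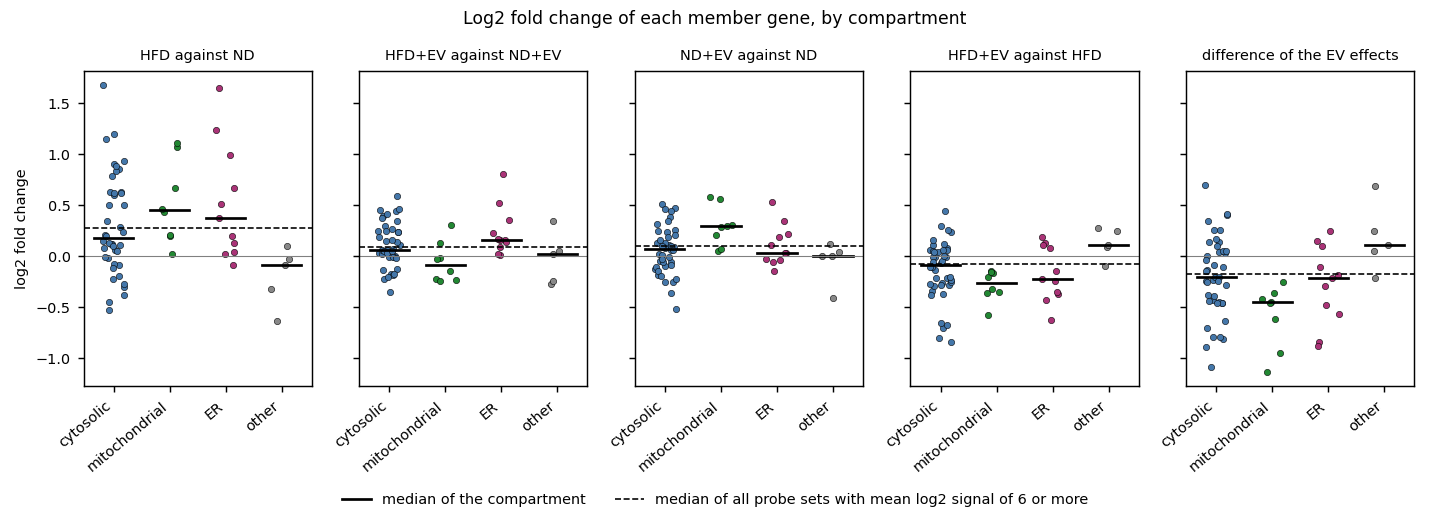
Log2 fold change of each gene, 1 point a gene, by compartment in the 5 comparisons, with a solid line at the median of the compartment and a dashed line at the median of all probe sets with a mean signal of 6 or more. In HFD against ND the mitochondrial and ER medians (0.45 and 0.37) lie above the dashed line (0.28) and the cytosolic median (0.18) below it, with 3 of 8, 6 of 11 and 17 of 42 genes at the signal of the dashed line, and in the difference of the EV effects the mitochondrial median (-0.45) lies furthest below its dashed line (-0.17).

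The EV comparisons asked what the injection did under each diet. Under the normal diet 42 of 66 genes were above ND in ND+EV, with a median of 0.07, against 49.15% of all probe sets tested and 61.31% of the bright ones. The compartment medians were 0.07 for the cytosol, 0.29 for mitochondria and 0.03 for the ER. All bright probe sets had a median of 0.09, the dimmer ones of -0.02 and all tested of -0.0046. Without ND replicates 1 and 3 the compartment medians were -0.01, 0.09 and 0.01, and that of the ER was -0.02 and -0.01 under quantile normalization and cyclic loess.

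Under the high fat diet 43 of 66 genes were lower in HFD+EV than in HFD and 23 were higher, with a median of -0.14. Of all probe sets tested 49.55% were higher in that comparison, and of the bright ones 36.78%. The medians were -0.09 for the cytosol, -0.26 for mitochondria and -0.23 for the ER, beside -0.08 for all bright probe sets. The difference of the EV effects had medians of -0.20, -0.45 and -0.21, beside -0.17. In HFD+EV replicate 1 the scores were the lowest of the group, at -0.18 for cytosolic, -0.17 for mitochondrial and -0.02 for ER genes, against 0.0007 to 0.27 on the other HFD+EV arrays. Without it the medians in HFD+EV against HFD were -0.20 for mitochondria, -0.12 for the ER, -0.0047 for the cytosol (21 of 42 higher) and -0.08 for TRiC, which was -0.26 with it. Over all 66 genes the median without it was -0.06. Without HFD replicate 2 the ER median was -0.05. Split by signal, the 26 genes with a mean signal of 6 or more had a median of -0.32 and the other 40 of 0.02.

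Other genes of the chaperone pathways gave 0 calls in limma in any of the 5 comparisons. In HFD against ND, 8 of 17 ER partners and genes of the unfolded protein response that were tested were higher at an unadjusted p of 0.05 and 0 lower. Of all probe sets 13.6% were higher and 10.4% lower at that p, and 38.0% of those with a mean signal of 6 or more lay under it. The 8 genes were the disulfide isomerases PDIA3 (1.03, adjusted p = 0.0775) and PDIA4 (0.56), the lectin CANX (0.97), the secreted factor MANF (0.89), the exchange factor HYOU1 (0.77), and the transcription factors XBP1 (0.84), DDIT3 (0.70) and ATF6 (0.43). PDIA3 was also higher in HFD+EV than in ND+EV (0.66, unadjusted p = 0.0213), the only one of these lists' ER genes under that p there.

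Of the HSP90 and HSP70 co-factors without a J domain, 5 of 19 tested were higher in HFD than in ND at an unadjusted p of 0.05 and 0 were lower, against 13.6% and 10.4% of all probe sets. The myosin chaperone UNC45B (0.81) and SMYD1 (1.04), a muscle methyltransferase that works with it, were among them, with BAG4 (0.81), SGTA (0.78) and ST13 (0.75). In HFD+EV against HFD SMYD1 was at -0.62 (unadjusted p = 0.0333), BAG1 at -0.54 (0.00398) and FKBP5, a cochaperone induced by glucocorticoids, at 0.60 (0.00679). BAG3 was 0.20 higher in HFD than in ND (unadjusted p = 0.258).

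Of 9 mitochondrial partners, the inner membrane protease YME1L1 (0.72) and the unfoldase CLPX (0.59) were higher and the exchange factor GRPEL2 (-0.43) lower in HFD than in ND at an unadjusted p of 0.05. The Hsp90 of mitochondria, TRAP1, was at 0.27 (unadjusted p = 0.145). None of the 5 genes of the prefoldin list, which also held the TRiC subunit TCP1, was under that p. Among heat shock regulators, HSBP1, which binds heat shock factors, was 0.64 higher (unadjusted p = 0.00428) and HSF2 0.38 (0.0347), while the main stress factor HSF1 was 0.25 higher (0.224). HSBP1 was 0.50 higher in ND+EV than in ND (0.0103).

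Markers of several cell types were also higher in HFD than in ND. Of all probe sets with a mean signal of 6 or more 72.7% were higher, with a median of 0.28, and 38.0% had an unadjusted p under 0.05 in limma. The median under 6 was -0.08. The cardiomyocyte and fibroblast markers all had a mean signal of 6 or more, and the T and B cell and adipocyte markers all lay under it. Of the cardiomyocyte markers 6 of 8 were higher, with a median of 0.33 and 3 under an unadjusted p of 0.05, and the log2 of their summed signal ran from 14.2 to 14.5 on ND, 14.5 to 14.6 on ND+EV, 14.7 to 14.8 on HFD and 14.5 to 14.8 on HFD+EV. All 6 fibroblast markers were higher, with a median of 0.88, and their summed signal ran from 11.4 to 12.8 on ND, 12.5 to 12.6 on ND+EV, 12.7 to 13.3 on HFD and 12.4 to 13.1 on HFD+EV. All 7 atrial muscle markers were above ND in HFD, MYL4 by only 0.0005, with a median of 0.64 and summed signals of 9.51 to 10.4, 10.4 to 10.8, 10.7 to 10.9 and 9.83 to 10.2 in the 4 groups in that order. Macrophage markers had a median of 0.41 (4 of 5 higher) and smooth muscle and pericyte markers 0.50 (4 of 5), while T and B cell (-0.12) and adipocyte markers (-0.09) were not higher on balance. No marker list had a member called in any comparison, and the part of any of these cell types in the chaperone values was not tested.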

How the data were processed

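Per the labels' protocols, cRNA made from 50 ng of total RNA was run on Affymetrix whole-transcript arrays. Transcriptome Analysis Console appears, without a version, in the submitters' processing notes. The values the authors deposited are log2 signal per probe set, from 2.14 to 14.0, with array medians from 4.36 to 4.48. How the signal was normalized, which annotation was used and the build were not given in the sources used here, and neither coordinates nor sequences are printed. Gene symbols come from the platform annotation, possibly outdated, for the 13157 probe sets with 1 symbol (523 had several and 13878 none). Of the 68 member probe sets 66 matched a current gene table, all but those of CCT6A, and 1 symbol had changed.

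Probe sets whose mean signal lay in the lowest 25%, under 3.63, were not tested, and 20668 of 27558 and 66 of 68 members remained. A linear model with 1 mean per group was fitted over all 11 arrays in R 4.3.3 with the lmFit and eBayes functions of limma 3.58.1 (7 residual and 3.62 prior degrees of freedom). Contrasts were tested two-sided. The p-values were adjusted by Benjamini and Hochberg's method across the whole set of probe sets kept, and the threshold was 0.05. Medians cover all genes of a class, include those below the filter, and have no test. Alternatives were other filters, quantile or cyclic loess normalization, a trended and robust variance, array weights, only the groups compared, all probe sets of a gene, the replicate number as a block, and arrays left out. The functions were tested on simulated data.

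The members, their compartments, the pathway and marker lists and the alternatives were chosen with earlier results of these data known. The rule named the chief chaperones of each class and, for each comparison, members past the threshold, filled to 3 higher and 3 lower by the smallest p. HSPB2, HSPA4, DNAJC19, CCT6A and HSPB3 in HFD against ND, and the other members and list genes given a value, were chosen after their values were seen. Precision is limited by how few arrays there were, and a detection call was not used here.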

Additional observations from a re-analysis of the deposited data

How the results depend on the processing

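Of 1897 values recomputed under the alternatives, 1816 kept their direction and their side of the threshold or stayed within the spread between arrays. Of 1464 values of single genes 1456 kept their direction, but many of these could not change it. Other filters, a trended and robust variance and only the groups compared leave a difference as it was. So does leaving out an array of a group outside the comparison. The count of kept directions is therefore no measure of how stable the differences are. The count of 1 member called in HFD against ND was 0 with no filter on low signal, under quantile normalization, under cyclic loess, with a trended and robust variance, with only the groups compared, with array weights and with ND replicates 1 and 3 left out. Leaving out each array of ND, ND+EV and HFD+EV in turn gave counts from 0 to 12. The 12 came without ND replicate 2 (1353 of all probe sets), and 9 came without HFD+EV replicate 1 (721 of all probe sets). With the replicate number as a block, 938 of all probe sets were called in HFD against ND, and 11 members were among them. These were CALR, CCT4, CRYAB, DNAJA1, DNAJB9, DNAJC10, DNAJC8, HSPA5, HSPA9, HSPB6 and HSPE1. With that block 14 members (21.2%, all probe sets 11.1%) had an unadjusted p under 0.05 for the difference of the EV effects, against 7 without the block. Arrays of the same number deviated together with r from -0.10 to 0.33 (median 0.08 over 15 pairs, against -0.05 for different numbers). The samples were taken to share only a number, since no label ties the numbers to an animal or day. These r cannot decide whether the numbers pair. The 2 HFD arrays, each set against their own mean, deviate in mirror image, so their r with any other array have opposite signs. That 9 of 11 arrays had their highest mean r with their own number is a hint from the data, not from the design.

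Leaving out ND replicates 1 and 3 moved the mitochondrial median to 0.29 in HFD against ND and to 0.092 in ND+EV against ND, and the cytosolic median of the difference of the EV effects to -0.042. Leaving out each array in turn moved the ER median of HFD+EV against HFD between -0.39 and -0.052, and the medians of the difference of the EV effects between -0.38 and -0.11 for the ER, -0.26 and -0.073 for the cytosol, and -0.62 and -0.39 for mitochondria. HSPB1 in HFD against ND was -0.019 under quantile normalization and -0.16 under cyclic loess. HSPB3 in HFD against ND was -0.17 without ND replicates 1 and 3 and ran from -0.027 to 0.44 with arrays left out in turn, and CCT6A from -0.61 to 0.0064. In HFD+EV against HFD, HSPA8 ran from -0.11 to 0.22, DNAJB11 from -0.32 to 0.016 and CCT4 from -0.46 to 0.11. Under quantile normalization and under cyclic loess, 12 of 66 genes changed sign in HFD against ND. The cause was not tested. HFD had 2 arrays, so each HFD value rests on a pair, and no array gives a measure of depth.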
